A study of Equus caballus with 8 samples.

Results

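The epidermal growth factor (EGF) family of secreted ligands and their receptors was followed in equine mesenchymal stem cells from bone marrow (BM-MSCs) grown with and without TGF-β2. Its members were fixed by gene symbol as 6 ligands (EREG, AREG, HBEGF, TGFA, BTC and NRG1), 3 receptors (EGFR, ERBB2 and ERBB3) and the receptor inhibitor ERRFI1. All 10 had a row among the 15266 named genes of the table. BM-MSCs are the plastic-adherent stromal cells that grow out of marrow, here primary cultures from the sternum of 4 healthy Thoroughbred or Thoroughbred-cross horses, here called D, J, L and W after the labels. Cells of every horse were grown untreated (4 libraries) and with recombinant human TGF-β2 at 1 ng/ml (4 libraries), which the labels describe as given from isolation until passage 3 or 4, and the methods as given over 3 passages. Both groups grew in low-glucose DMEM with fetal bovine serum, antibiotics and, by the study's methods, recombinant basic fibroblast growth factor, so growth factors were present in the untreated cultures too.

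EGF family ligands are made as membrane-anchored precursors, and metalloproteinases of the ADAM family cut them loose. A released or anchored ligand joins receptors into pairs, and the tyrosine kinases of the pair then start the RAS-ERK and PI3K-AKT relays. EREG, AREG, HBEGF, TGFA, BTC and EPGN bind EGFR, some of them not exclusively, and each neuregulin binds ERBB3, ERBB4 or both. ERBB2 has no known ligand of its own and serves as the preferred partner of the others. ERRFI1, also known as MIG6, binds the kinase domain of EGFR and shuts it off. In connective tissue the family is known for driving the growth and migration of fibroblasts and epithelium during repair.

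Between 39184554 and 57228675 reads were counted per library. Values are normalized counts, that is, reads per gene divided by the authors' size factor for the library, and 3 reads corresponded to 2.02 to 3.60 of them, which covers counting error only. The libraries of horse J stood apart. Among all genes tested, 16.5% changed in J against the direction shared by the other 3 horses, compared with 4.55% to 7.52% for each of the other horses. In the untreated library of J the T cell gene CD3E had 112 normalized counts, against 0 to 16.2 in the other untreated libraries and 0 in all treated ones. All 6 stromal markers (THY1, ENG, NT5E, CD44, ITGB1 and PDGFRB) were present, with a summed level of 161816 to 355467 normalized counts in untreated and 172849 to 271837 in treated libraries, but they did not move together. THY1 was called lower (log2 fold change -2.21, adjusted p from limma 0.00203) and was lower in all 4 horses. PDGFRB and ITGB1 were at -0.71 and 0.91 on the log2 scale (adjusted p from limma 0.0367 and 0.0159), short of the fold threshold. Of 6 leukocyte markers 5 were listed, with sums of 224 to 455 in untreated and 175 to 258 in treated libraries. For the 4 endothelial markers, CDH5 and KDR were listed, and their sums were 7.10 to 26.3 in untreated and 30.0 to 55.7 in treated libraries. Of the 5 epithelial markers KRT8 alone was listed, with 0 to 0.942 normalized counts in untreated and 39.3 to 122 in treated libraries, while EPCAM, CDH1, KRT18 and KRT5 were not analysed here. In bulk RNA, more cells that express a gene and more RNA per cell cannot be told apart, and the part of these markers in the results below was not tested.

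To learn which family genes differed after treatment, the groups were compared with limma on log2(normalized count + 1) with the horse as a block, over the 14907 genes that reached 10 normalized counts in 4 or more libraries. Genes were called where the log2 fold change exceeded 1 in either direction and the p adjusted by Benjamini-Hochberg was under 0.05. In the treated cells 4 of the 6 ligands were called higher, namely AREG, EREG, HBEGF and NRG1. No receptor was called, and neither was ERRFI1. Over the 10 members this made 4 called higher and 0 lower, with 5 tested and not called and ERBB3 not tested because it was too low. Among all genes tested, 6.83% were called higher and 7.31% lower, that is 1018 and 1090 genes. With each library scaled to the same total these became 698 and 1839, and the members still numbered 4 and 0. At an unadjusted p under 0.05 with no fold threshold, limma gave 4 members higher and 1 lower, ERBB2. Of all genes tested, 22.4% were higher and 21.9% lower at that p. At the thresholds of a call, DESeq2 and edgeR, each fitted with a horse term, gave 4 members higher and 0 lower. The median log2 fold change of the 9 members tested was 0.95, against 0.01 over all genes tested. NRG1 would not have passed the filter on its untreated libraries alone. The members were also chosen with earlier results of these data known. These counts and this median are therefore descriptions of the members and no more.

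**Figure D1:**
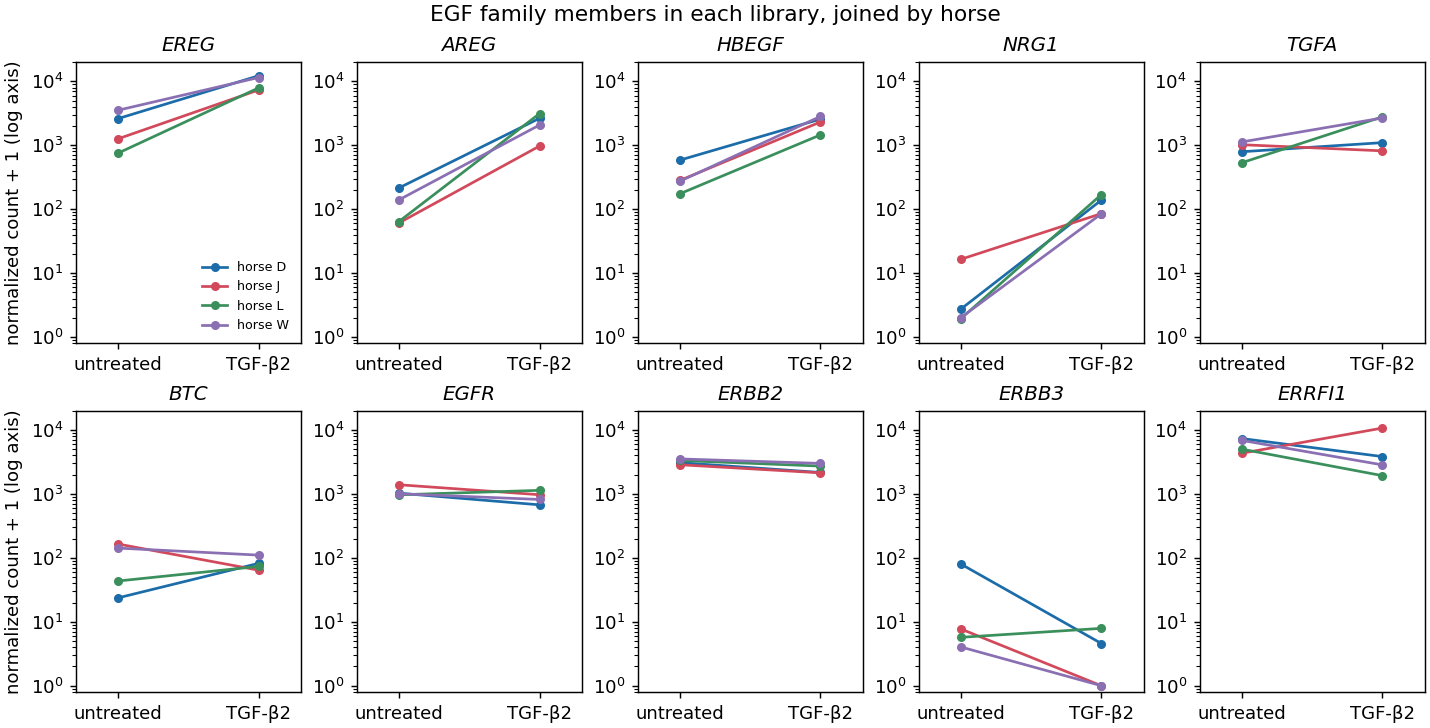
Normalized counts plus 1 on a log axis for each of the 10 members, with 1 line per horse from its untreated to its TGF-β2-treated library. All lines rise for EREG, AREG, HBEGF and NRG1 without overlap between the groups, the line of horse J runs against the others for TGFA and ERRFI1, and ERBB3 exceeds 7 normalized counts only in the untreated library of horse D.

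AREG, which encodes amphiregulin, had 214, 59.9, 63.1 and 139 normalized counts in the untreated libraries of horses D, J, L and W. In their treated libraries it had 2643, 972, 3128 and 2074. Every treated library lay above every untreated one, as it did for 13.9% of all genes tested. The mean went from 119 ± 73.1 to 2204 ± 928 (SD, n = 4), an 18.5-fold difference. Limma estimated the log2 fold change of AREG at 4.28 (standard error 0.34), with an adjusted p of 0.00200. AREG rose in 4 of 4 horses, by 3.62 to 5.61 on the log2 scale, with the largest step in L.

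EREG encodes epiregulin, which like amphiregulin is shed from the cell surface by ADAM17. Its untreated libraries held 2609 (D), 1259 (J), 751 (L) and 3527 (W) normalized counts. The treated ones held 12221, 7327, 7889 and 11467 in the same order. The horses differed more before treatment than after it, as the highest of the untreated libraries had 4.70 times the lowest and the highest treated library 1.67 times the lowest. The mean rose 4.78-fold, from 2036 ± 1266 to 9726 ± 2476 (SD, n = 4). By limma the log2 fold change of EREG was 2.46 (standard error 0.27, adjusted p = 0.00377).

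AREG changed more than EREG in each horse. The difference between their log2 changes was 1.39 in D, 1.46 in J, 2.22 in L and 2.19 in W, with a mean of 1.81 ± 0.45 (SD, n = 4). An exact two-sided sign-flip permutation test gave p = 0.125, which is the smallest p that 4 horses allow. This pair was chosen after its values were seen.

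HBEGF, the heparin-binding member that also serves as the diphtheria toxin receptor, had 585, 281, 173 and 273 normalized counts in untreated cells of D, J, L and W. After treatment it had 2567, 2317, 1454 and 2828. The groups did not overlap, and the horse with the highest untreated level, D, had the smallest change. HBEGF went from 328 ± 178 to 2291 ± 596 normalized counts (SD, n = 4), 6.99-fold. Its log2 fold change of 2.90 had the smallest standard error of the 4 called members, 0.21, and limma gave an adjusted p of 0.00164.

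NRG1 encodes neuregulin-1, a ligand of ERBB3 and ERBB4 that is best known from nerve and heart. It had hardly any reads in 3 untreated libraries, with 2 in D, 1 in L and 1 in W, which equal 1.74, 0.942 and 1.01 normalized counts, while J had 23 reads or 15.5 normalized counts. The treated libraries held 138 (D), 84.6 (J), 169 (L) and 84.1 (W) normalized counts. The groups did not overlap, and J, with the highest untreated level, changed least. As ratios of treated to untreated, horse J gave 5.46 with an exact 95% counting interval of 3.40 to 9.11. The ratios of the other horses rest on 1 or 2 untreated reads and their intervals are wide, from 21.5 to 663 for D, from 31.7 to 7131 for L and from 14.4 to 3320.1 for W. By limma the log2 fold change of NRG1 was 4.97 (standard error 0.69, adjusted p = 0.00676). NRG1 reached 10 normalized counts in 5 libraries, and J was the only untreated one among them. It passed the filter through its treated libraries, so a difference was built into its being tested. With a pseudocount of 5 in place of 1 the log2 fold change was 3.82.

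TGFA, which encodes transforming growth factor alpha, an EGFR ligand unrelated in sequence to TGF-β, was not called. It had 792, 1021, 532 and 1126 normalized counts in untreated and 1099, 818, 2784 and 2674 in treated libraries of D, J, L and W. Libraries of L and W were high after treatment, whereas the level in J was lower than before, and the groups overlapped. The log2 fold change was 0.95, with a 95% confidence interval of -0.12 to 2.01 (adjusted p from limma 0.147). With horse J left out it was 1.37 (adjusted p from limma 0.0347), which would be a call, and with horse L left out it was 0.47 (0.339).

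BTC, the gene of betacellulin, did not move in one direction. Its normalized counts went from 22.6 to 81.0 in D and from 42.4 to 72.4 in L, but from 164 to 63.2 in J and from 141 to 109 in W. It was higher in 2 horses and lower in 2, with untreated levels spread wider than treated ones. The log2 fold change was 0.21 (95% confidence interval -1.10 to 1.52), and the adjusted p from limma was 0.789.

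**Figure D2:**
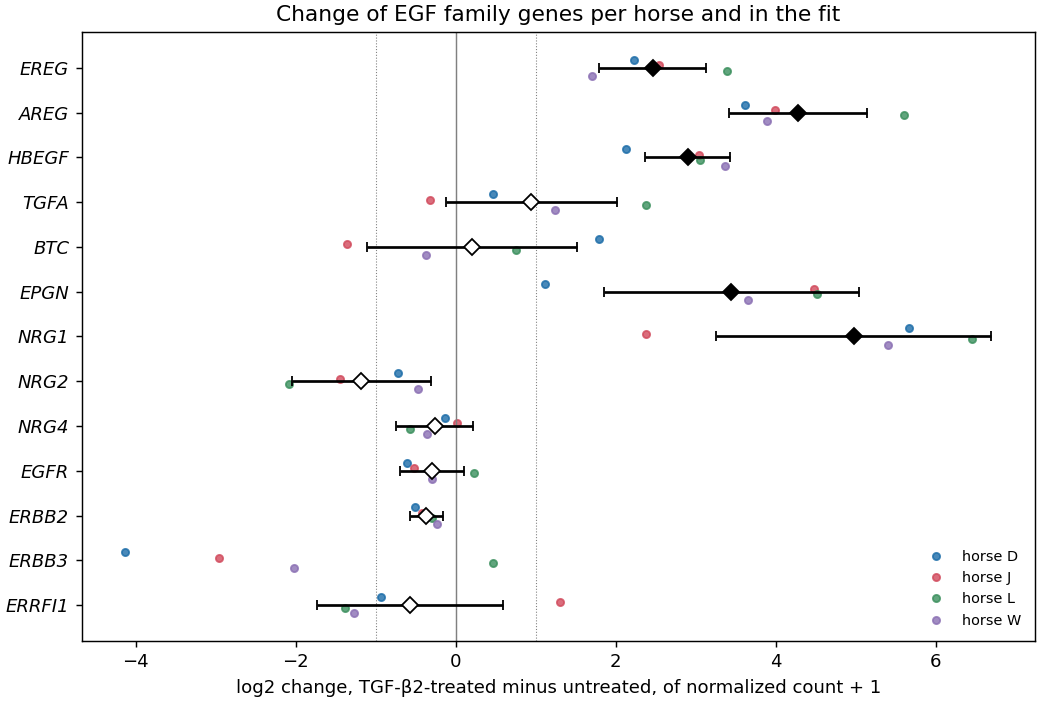
Log2 change of normalized count + 1, treated minus untreated, for the 13 EGF family genes with a row, with coloured points for the 4 horses and diamonds with bars for limma's log2 fold change and 95% confidence interval (filled where called; none for ERBB3, which was not tested). EREG, AREG, HBEGF, EPGN and NRG1 lie wholly to the right of 1, while the intervals of TGFA, BTC, EGFR and ERRFI1 cross 0.

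EGFR, the receptor of AREG, EREG and HBEGF, had 1025 (D), 1388 (J), 967 (L) and 1003 (W) normalized counts in untreated libraries and 673, 969, 1135 and 817 in treated ones. It was lower in 3 horses and higher in L, and the groups overlapped. Its log2 fold change was -0.30, with a 95% confidence interval of -0.70 to 0.10 (adjusted p from limma 0.208). A change past the fold threshold of 1 in either direction thus lies outside the interval of EGFR, although a smaller one does not. With each library scaled to the same total, EGFR was at -0.61 (adjusted p from limma 0.0236) and ERBB2 at -0.68 (0.00320). Both stayed short of the fold threshold, and that scaling moved the median of all genes by -0.31.

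ERBB2, which joins the other receptors as a partner, had the smallest standard error of the 9 members tested. In untreated cells it had 3080.1, 2855, 3326 and 3521 normalized counts, and in treated cells 2158, 2132, 2719 and 2994, for D, J, L and W. Its level was below the untreated one in each of the 4 horses, by log2 changes of -0.51 to -0.23, although the treated library of W reached the range of the untreated ones. The log2 fold change of -0.36 (standard error 0.08) had an adjusted p from limma of 0.0268, so that ERBB2 met the p threshold but not the fold threshold. Among all genes tested, 15.3% had a lower level at this adjusted p without a fold threshold. Without the horse as a block the adjusted p of ERBB2 was 0.0879.

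ERBB3, the neuregulin receptor with little kinase activity, had few reads outside the untreated library of D. It had 79.2, 6.73, 4.71 and 3.04 normalized counts in untreated and 3.57, 0, 6.90 and 0 in treated libraries of D, J, L and W. The untreated library of D held 91 of the 109 untreated reads, and the 4 treated libraries together held 9. It reached 10 normalized counts in 1 library and so was not among the genes tested. With no filter on low values, limma gave a log2 fold change of -2.16 for ERBB3 (standard error 0.80), which missed the threshold (adjusted p = 0.0942). The other neuregulin receptor, ERBB4, and the ligands EGF and NRG3 had no row under these symbols and were not analysed here.

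ERRFI1 had 7337 (D), 4317 (J), 5011 (L) and 6859.6 (W) normalized counts in untreated cells. After treatment the levels were 3829, 10691, 1927 and 2840.1. The level was lower in D, L and W, with log2 changes of -0.94, -1.38 and -1.27, and higher in J, with one of 1.31, where the treated library was the highest of all 8 and the untreated one the lowest of its group. Over all horses the log2 fold change was -0.57, with a 95% confidence interval of -1.73 to 0.59 (adjusted p from limma 0.391). With horse J left out the log2 fold change was -1.20 (standard error 0.11) and the adjusted p from limma was 0.00244, which would be a call, and with horse L left out they were -0.30 and 0.723.

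The calls of AREG, EREG, HBEGF and NRG1 did not rest on horse J. Without it, the log2 fold changes were 4.37, 2.44, 2.85 and 5.84, with adjusted p from limma of 0.00228, 0.00547, 0.00205 and 9.42e-04. All of them were also called with any other single horse left out and without the horse as a block, the fit in which 5.59% of all genes were called higher and 5.87% lower. For NRG1 the limit of the filter given above applies to these calls too.

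Of the family genes that are no members, EPGN, NRG2 and NRG4 had a row. EPGN, which encodes epigen, another EGFR ligand, had 19.1, 0.673, 0 and 2.03 normalized counts in untreated libraries of D, J, L and W and 42.9, 36.4, 21.8 and 37.2 in treated ones. The groups did not overlap, although these levels are low, with 25 reads in all untreated and 120 in all treated libraries. EPGN was called higher, at a log2 fold change of 3.44 (standard error 0.64). Its adjusted p from limma was 0.0147, and 0.0774 when horse W was left out. Like NRG1, EPGN passed the filter through its treated libraries, with 1 untreated library at 10 or more, so a difference was built into its being tested. NRG2 lay lower in each of the 4 horses, with log2 changes of -2.08 to -0.47, from a mean of 35.0 ± 23.0 to 15.4 ± 9.35 normalized counts (SD, n = 4). The log2 fold change of NRG2 was -1.18 and its adjusted p from limma was 0.0522, just short of a call, and DESeq2 with a horse term called it (adjusted p = 0.0421). NRG4 had a log2 fold change of -0.26 (adjusted p from limma 0.347). Among the neuregulin genes with a row, NRG1 was thus called and NRG2 and NRG4 were not.

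Several of these ligand genes are neighbours. In the order of protein-coding genes in the RefSeq annotation of the horse assembly TB-T2T, in which all 16 family symbols were found, BTC, AREG, EREG and EPGN stand next to each other with no other protein-coding gene between them. AREG, EREG and the sparsely read EPGN were called higher and BTC, at the end of this row, was not. The genes around the row were looked at after the values of the ligands were seen. On the side of BTC the next gene, PARM1, was called higher (log2 fold change 3.11, adjusted p from limma 0.00256), while RCHY1 and THAP6 beyond it had log2 fold changes of 0.12 and -0.07. On the side of EPGN, MTHFD2L had a log2 fold change of 0.16 (adjusted p from limma 0.601), and the chemokine gene CXCL1 after it was called lower, by -2.42 (adjusted p from limma 0.0108). HBEGF and NRG2 are also close, with PFDN1 and PURA between them. The log2 fold changes of PFDN1 and PURA were -0.09 and 0.10, and neither was called.

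**Figure D3:**
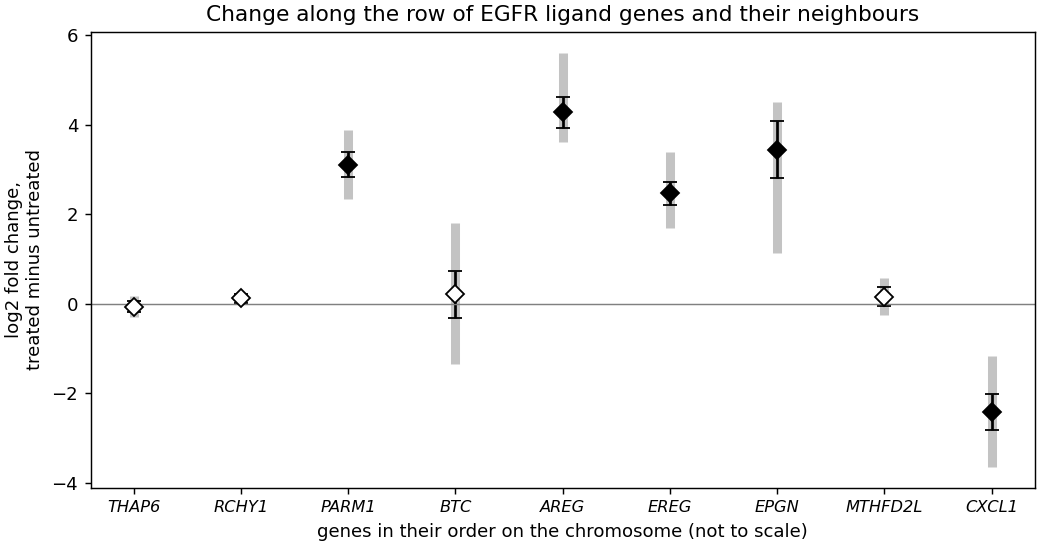
Log2 fold change (diamonds, bars for the standard error, filled where called) and range over the 4 horses (grey bands) for BTC, AREG, EREG, EPGN and their tested neighbours in chromosomal order. Called increases of 2.46 to 4.28 in AREG, EREG and EPGN and of 3.11 in PARM1 stand on either side of BTC, at 0.21, and CXCL1 lies at -2.42.

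The genes that act around the ligands and receptors were taken from 4 lists, also chosen with earlier results of these data known. Of 57 pathway genes tested, 4 were called higher and 5 lower, which is 7.02% and 8.77% and close to the 6.83% and 7.31% of all genes. Their median log2 fold change was -0.05. Among the 9 genes of ligand release, 2 were called higher and 1 lower. At an adjusted p from limma under 0.05 with no fold threshold, 2 were higher and 4 lower. That is 22.2% and 44.4%, against 15.7% and 15.3% of all genes tested. ADAM12, a metalloproteinase linked to the shedding of HBEGF, went from 2599 ± 1990 to 17649 ± 3244 normalized counts (SD, n = 4). Its log2 fold change was 3.13 (adjusted p from limma 0.0104). ADAM19, linked to the processing of neuregulins, had a log2 fold change of 1.35 (adjusted p from limma 0.00185). RHBDL2, a rhomboid protease, went from 97.0 ± 37.4 to 31.5 ± 19.3 normalized counts (SD, n = 4), which is -1.67 on the log2 scale (adjusted p from limma 0.00925). The main sheddase ADAM17, named after its values were seen, went from 2979 ± 352 to 3065 ± 432 normalized counts (SD, n = 4), and its log2 fold change was 0.04. FRMD8 and RHBDF1, which hold ADAM17 in its active form at the surface and were likewise named afterwards, had log2 fold changes of -0.92 and -0.62, short of the fold threshold (adjusted p from limma 0.00956 and 0.00720). ADAM10, another metalloproteinase of the ADAM family and also named afterwards, was lower in all 4 horses. Its log2 fold change was -0.51 (adjusted p from limma 0.0210).

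Of the 11 genes of receptor attenuation, LRIG1 was called higher and LRIG3 and SH3KBP1 lower. LRIG1, whose product promotes the degradation of EGFR family receptors, went from 321 ± 120 to 1183 ± 453 normalized counts (SD, n = 4), or 1.87 on the log2 scale (adjusted p from limma 0.0133). The log2 fold changes of its relative LRIG3 and of SH3KBP1, an endocytic adaptor of the ubiquitin ligase CBL, were -1.02 and -1.19 (adjusted p from limma 0.00661 and 0.0181). None of the 21 adaptor and relay genes was called by limma, DESeq2 or edgeR, although 9 were higher and 3 lower at an unadjusted p under 0.05 in limma, as were 22.4% and 21.9% of all genes tested. Their log2 fold changes ran from -0.87 to 0.65, and MAPK3, the gene of ERK1, had the smallest p of them with a log2 fold change of -0.68 (adjusted p from limma 0.00621).

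Among 16 genes that ERK signalling is known to induce, 1 was called higher and 2 lower. DESeq2 with a horse term called 2 higher and 2 lower. At an adjusted p from limma under 0.05 with no fold threshold, 1 was higher and 5 were lower. That is 6.25% and 31.25%, against 15.7% and 15.3% of all genes tested. FOS and EGR1, the immediate-early factors that rise within minutes of growth factor signalling, were lower in all 4 horses. FOS went from 12143 ± 6829 to 2699 ± 1475 normalized counts (SD, n = 4), which is -2.18 on the log2 scale (adjusted p from limma 0.0114). EGR1 had a log2 fold change of -2.44 (adjusted p from limma 0.0179). ETV4 was called higher with the horse as a block, at a log2 fold change of 1.06 (adjusted p from limma 0.0277), and not without it (0.303). In horse J 5 of these 16 genes (FOSL1, CCND1, DUSP4, SPRY2 and ETV5) changed against the direction shared by the other 3 horses, compared with 0 in D and W and 1 in L. Over all genes tested the share was 16.5% in J and 4.55% to 7.52% in the other horses. Of the family genes TGFA, NRG4 and ERRFI1 did so in J. Signs alone were compared, and the log2 change of NRG4 in J was 0.02. Of the called pathway genes, ADAM19 alone was called with each horse left out in turn. The call was lost without W for ADAM12, RHBDL2, LRIG1, SH3KBP1, ETV4, FOS and EGR1, without D for ADAM12, LRIG1, LRIG3, SH3KBP1 and ETV4, and without L for SH3KBP1, ETV4 and EGR1.

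**Figure D4:**
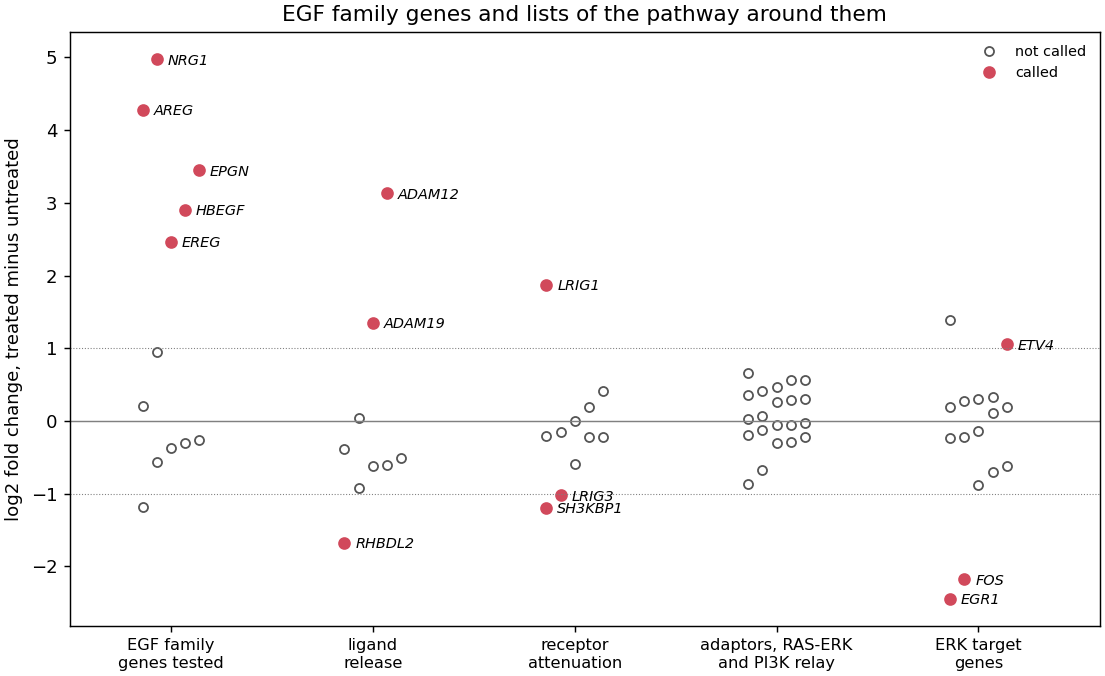
Log2 fold change, treated minus untreated, of the EGF family genes tested and of the genes in 4 pathway lists, 1 point per gene, filled and named where called. The called EGF family genes lie between 2.46 and 4.97, whereas the 21 adaptor and relay genes lie between -0.87 and 0.65 with none called, and FOS and EGR1 lie lowest among the ERK target genes.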

How the data were processed

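RNA of 8 cultures of equine BM-MSCs was sequenced after poly(A) selection, 4 untreated and 4 TGF-β2-treated, paired by the horse letter in the labels. Per the labels and the study's methods, the authors used Trimmomatic 0.36 for trimming, STAR 2.5.2b for alignment to EquCab 3.0 and featureCounts (Subread 1.5.2) for the unique hits of each gene. They deposited normalized counts, a signal of reads divided by a size factor per library, in 15267 rows, of which 1 had no gene name, held 0.0281% to 0.0531% of the signal and was left out. Dividing by the value of 1 read gave whole reads for 100% of the values, within 0.001 of a read. Depth was 39184554 to 57228675 reads.

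Tests used limma 3.58.1 under R 4.3.3, with lmFit and a trended eBayes. Values entered as log2(normalized count + 1), which understates changes of low genes, with adjustment over all genes tested. The horse was the block, since both cultures of a horse came from the same marrow. Deviations from the group means were correlated within a horse, with correlations of 0.386 to 0.609 across genes. For different horses they ran from -0.400 to 0.116, with a mean of -0.159. Deviations of a gene cancel out over the horses of a group, so positive values within a horse push those between horses negative. The contrast is therefore no test of the pairing. Alternatives were no block, other pseudocounts, filters, scalings and thresholds, no trend, DESeq2 1.42.0, edgeR 4.0.16 and each horse left out. On the recovered reads DESeq2 with a horse term called 2343 genes, against 2108 by limma. Exact tests used scipy 1.17.1. The fits were tested on simulated data.

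The members and lists were chosen with earlier results of these data known. Named are all members, the other EGF family genes listed, and in each pathway list the called genes (at most 4 each way) or, with none called, the one with the smallest p. Other genes are marked. Sequences, coordinates and levels per transcript length are not given, since a reference of the authors' build was not used here.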

Additional observations from a re-analysis of the deposited data

Results flagged for a closer look

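In 4 of the 26 groups of 4 libraries formed by the 13 EGF family genes, the library at one end lay apart from the other 3, by a gap past Dixon's 95% critical value. By chance about 1 group in 20 would do so if the values were normally distributed. Low counts such as those of NRG1, EPGN and ERBB3 need not follow that rate, so no conclusion is drawn from the number of groups. All 4 flagged groups were untreated ones. NRG1 had 15.5 normalized counts in the untreated library of horse J, with the other untreated libraries at 0.942 to 1.74. EGFR was also highest in the untreated library of J, at 1388 normalized counts against 967 to 1025 in the others. In the untreated library of horse D, EPGN had 19.1 and ERBB3 had 79.2 normalized counts, against at most 2.03 and 6.73 in the other untreated libraries.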

How the results depend on the processing

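The number of members called higher was within 1.5 times its value of 4 under all alternatives. The number called lower, 0, became 1 with no fold change threshold (ERBB2), and ran from 0 to 1 with each horse left out, where 1 was ERRFI1 without J. A difference was built into the testing of NRG1, which passed the filter through its treated libraries. AREG, EREG, HBEGF and NRG1 kept their call under all 16 alternative fits, with adjusted p up to 0.0479. Without the replicate block their adjusted p from limma were 0.00149, 0.00801, 0.00189 and 0.00265, and in limma the block changed no call of a member. In DESeq2 it changed that of TGFA, called without the block (adjusted p = 0.0459) and not with it (0.0670). BTC reversed to -0.10 with each library scaled to the same total, to -0.19 with DESeq2 without the block and to -0.32 without horse D, was called in none of these, and ran from -0.32 to 0.73 with each horse left out. NRG2 was also called after total scaling (-1.47) and without a trend, and EPGN was not called by DESeq2 without the block (adjusted p = 0.0510).

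Pathway genes called higher, 4, became 1 at an adjusted p under 0.01 and 9 with no fold change threshold, and ran from 1 to 5 with each horse left out (1 without D or W, where the 1018 of all genes fell to 587 and 549). Those called lower, 5, became 9 under total scaling, 2 at an adjusted p under 0.01 and 14 with no fold change threshold (15.7% and 15.3% of all genes were higher and lower at that setting), and ran from 1 (without W, 3 without D, where the 1090 of all genes fell to 536 and 589) to 6. Total scaling moved the median of all genes by -0.31 on the log2 scale. Fits that left out a horse kept the block and had 3 horses. Few reads limit what can be resolved for ERBB3 in 7 of the 8 libraries and for NRG1 in the untreated libraries of D, L and W.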
